A study of Caenorhabditis elegans with 6 samples.

Results

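The dod genes of Caenorhabditis elegans ("downstream of DAF-16") were followed across worms exposed to a hydrogen sulfide donor and control worms. The 9 genes dod-3, dod-17, dod-18, dod-19, dod-20, dod-21, dod-22, dod-23 and dod-24 were chosen by name, out of 18217 gene symbols on the array. They were read on 10 of its 22625 probe sets, all those annotated to any of the 9, whatever their values. The 9 genes were proposed with earlier results of these data known, so their choice was not blind to the values. Dod-19 has 2 probe sets, and dod-21 shares its only probe set with the adjacent gene cld-1, so its signal cannot be assigned to either gene. RNA of whole N2 (Bristol) worms, labelled as L4 larvae, was hybridised to Affymetrix arrays, 3 for GYY4137 and 3 for control. The exposed worms received GYY4137, a compound that slowly releases hydrogen sulfide (H2S), at 100 uM for 48 h in liquid and a further 12 h on plates. The controls were raised under standard laboratory conditions, and any mock treatment of them is not given in the sources used here. All 6 arrays carry wild-type worms, so no mutant of the insulin pathway is part of the comparison. Nothing in the labels says that the replicates were separate cultures, so the p-values describe how far these arrays scatter, and that scatter may be technical.

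DAF-16 is the FOXO transcription factor at the end of the worm insulin pathway. When the insulin receptor DAF-2 signals, the kinases AKT-1, AKT-2 and SGK-1 keep DAF-16 out of the nucleus, and when the pathway is quiet DAF-16 enters the nucleus and lifespan is extended. The dod genes were named in a screen for transcripts that differ between daf-2 mutants and worms lacking daf-16. Dod-3 belongs to the class that active DAF-16 raises, whereas dod-17 to dod-24 belong to the class that is low when DAF-16 is active and high when insulin signalling is strong. The proteins of dod-17, dod-22 and dod-24 carry a CUB-like domain, and these genes are also known from worms infected with bacteria.

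Each value is 1 number per probe set and array, on the log2 scale of GCRMA, the authors' summary of the probe intensities. A value of 4 was used as a floor, and a probe set was tested when it exceeded this floor on at least 3 of the 6 arrays. GYY4137 minus control was fitted with limma over all 8053 probe sets that passed, with Benjamini-Hochberg adjustment over all of them and a threshold of 0.05. GYY4137 replicate 3 stood apart, with correlations across probe sets of 0.940 to 0.965 with the other arrays, against 0.979 to 0.993 among the other 5. Results are therefore also given without it. The arrays had 7723 to 8050 probe sets above the floor. RNA came from whole animals, so fewer cells of a type and less RNA per cell cannot be told apart.

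The probe set shared by dod-21 and cld-1 was above the floor in GYY4137 worms and below it in controls. Its log2 value was 6.21, 5.85 and 6.43 in the GYY4137 replicates, against 2.99, 3.03 and 3.09 in the controls. The gap between the groups was 2.75 as measured. The difference was 3.12 ± 0.16 (SE, n = 3 per group, limma adjusted p = 0.000312). It was 2.99 in the fit without GYY4137 replicate 3 (limma adjusted p = 7.74e-06). On the linear scale this corresponds to 8.72-fold, but the control level is below the floor, and the GYY4137 mean stood 2.16 on the log2 scale, or 4.48-fold, above the floor itself. Its place above or below dod-22 in size is therefore not settled. This probe set passed the filter only through the GYY4137 arrays, so it could not have been tested without differing. With every probe set of the array fitted and no filter applied it was still called (limma adjusted p = 0.0179).

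Dod-22, a CUB-like gene that is low when DAF-16 is active, had log2 values of 6.84, 7.27 and 7.32 in the GYY4137 replicates, against 4.74, 5.14 and 4.97 in the controls. Every array was above the floor, and the lowest GYY4137 array stood 1.69 above the highest control. Dod-22 rose by 2.19 ± 0.17 (SE), or 4.56-fold, with a 95% interval of 1.79 to 2.59 (limma adjusted p = 0.00343). It ranked 3 by difference and 6 by p among the 8053 tested probe sets. The difference was 2.10 without GYY4137 replicate 3. Dod-22 and the shared probe set were called in all 6 fits that left out 1 array, with adjusted p of at most 0.0442 and 0.00934.

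Dod-24, another CUB-like gene of the same class, lay well above the floor on every array. Its only probe set ends in _s_at, of a kind that can bind related transcripts, so the signal may not be of dod-24 alone. Its log2 values were 8.40, 8.74 and 8.55 in the GYY4137 replicates, against 7.68, 7.62 and 7.61 in the controls. The 3 controls had an SD of only 0.036, and the lowest GYY4137 array stood 0.72 above the highest of them. Dod-24 rose by 0.93 ± 0.12 (limma adjusted p = 0.0188). Its difference was also 0.93 without GYY4137 replicate 3, which here lay between the other GYY4137 arrays. The call ended without any 1 of the control arrays or without GYY4137 replicate 2, at differences of 0.95, 0.92 and 0.91 without control replicates 1, 2 and 3 and 0.84 without GYY4137 replicate 2.

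Dod-17, which is also CUB-like, lay just above the floor. Its log2 values were 4.70, 4.68 and 5.38 in the GYY4137 replicates, against 4.22, 4.28 and 4.20 in the controls. The groups did not overlap, but GYY4137 replicate 3 exceeded the mean of replicates 1 and 2 by 0.69. Dod-17 differed by 0.69 ± 0.20 and did not pass (limma adjusted p = 0.151). Without GYY4137 replicate 3 the difference was smaller, 0.46, yet it passed (limma adjusted p = 0.0361), with the spread among the remaining GYY4137 arrays reduced.

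**Figure D1:**
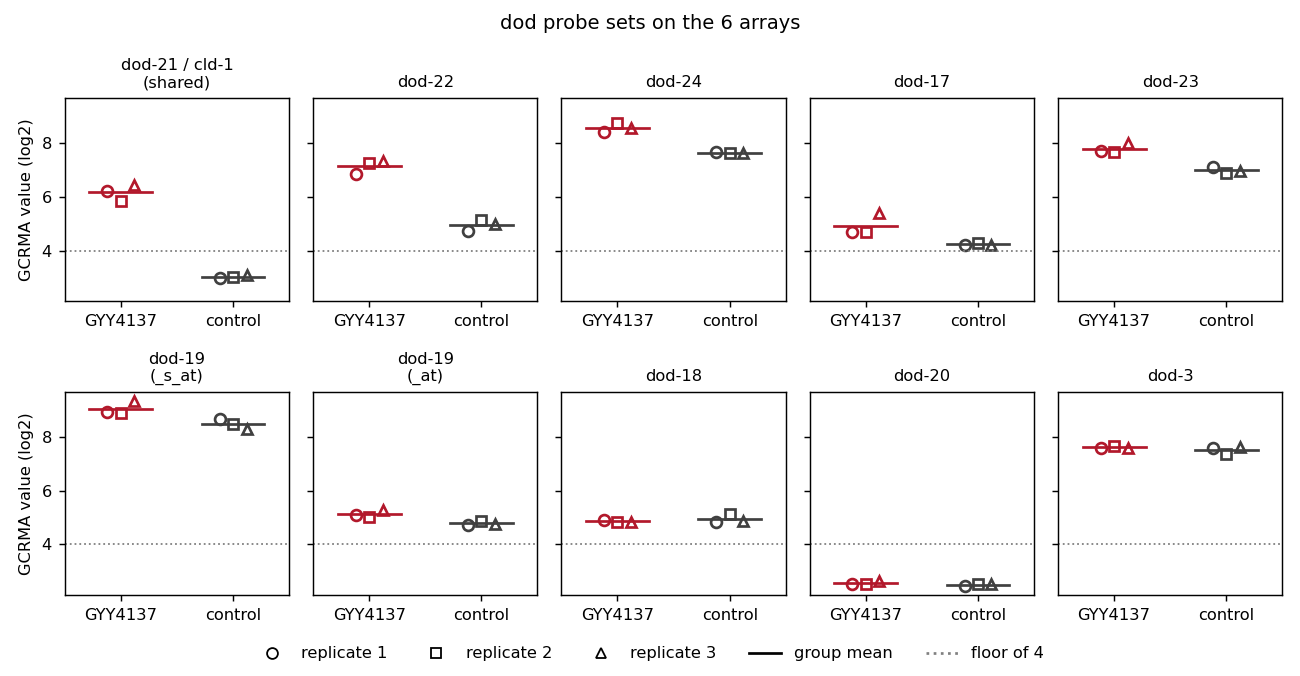
Log2 GCRMA value of each dod probe set on the 6 arrays, with the GYY4137 group on the left of each panel, replicates as symbols, group means as bars and the floor of 4 as a dotted line. Dod-22, dod-24, dod-17, dod-23 and both dod-19 probe sets have all GYY4137 arrays above all controls, the probe set shared by dod-21 and cld-1 crosses the floor, and dod-20 lies below the floor on every array.

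Dod-23, which lies on another chromosome and belongs to the same class, had log2 values of 7.68, 7.68 and 8.01 in the GYY4137 replicates, against 7.09, 6.88 and 6.96 in the controls. The lowest GYY4137 array was 0.58 above the highest control. Dod-23 rose by 0.81 ± 0.13 (1.75-fold), which was just inside the threshold (limma adjusted p = 0.0395). The difference was 0.70 when GYY4137 replicate 3, its highest array, was left out (limma adjusted p = 0.00926). Leaving out any other single array ended the call, with adjusted p between 0.0656 and 0.211 and differences between 0.76 and 0.87.

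Dod-19 and dod-20 are near neighbours on chromosome V. The dod-19 probe set ending in _s_at, of a kind that can bind related transcripts, had log2 values of 8.90, 8.88 and 9.33 in the GYY4137 replicates, against 8.67, 8.48 and 8.31 in the controls. The gene's other probe set, ending in _at, had values of 5.10, 5.03 and 5.27 in the GYY4137 replicates, against 4.73, 4.86 and 4.77 in the controls. On both probe sets the groups were separate, by 0.20 and 0.18, and GYY4137 replicate 3 was the highest array. The differences were 0.55 ± 0.16 and 0.35 ± 0.11, and neither passed (limma adjusted p = 0.168 and 0.197). They were 0.40 and 0.28 without GYY4137 replicate 3, again without passing.

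Dod-20 was below the floor on every array, with log2 values of 2.54, 2.51 and 2.65 in the GYY4137 replicates, against 2.46, 2.52 and 2.53 in the controls. The groups overlapped, and the probe set was not tested. Fitted with no filter, its difference was 0.06 with a 95% interval of -0.05 to 0.18 (limma adjusted p = 0.762), at a level where these arrays give no firm reading of the transcript.

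Dod-18, of the same class and on chromosome I, gave no difference past the threshold. Its log2 values were 4.91, 4.83 and 4.84 in the GYY4137 replicates, against 4.82, 5.13 and 4.87 in the controls. The groups overlapped, and control replicate 2 was the highest array of all 6. The difference was -0.08 ± 0.12, with a 95% interval of -0.36 to 0.20 (limma adjusted p = 0.721). That interval lies below the differences of dod-22, dod-23, dod-24 and the shared probe set, although no test of dod-18 against them was run. Its means, 4.86 in GYY4137 worms and 4.94 in controls, lay near the floor, which leaves little room for a fall to be read. This level does not cap a rise, since dod-22 rose by 2.19 from a control mean of 4.95.

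Dod-3 is the only one of the 9 from the class that active DAF-16 raises. It too was read on a probe set ending in _s_at, which can bind related transcripts. Its log2 values were 7.57, 7.66 and 7.60 in the GYY4137 replicates, against 7.60, 7.36 and 7.61 in the controls. The groups overlapped, with control replicate 2 alone on the low side. Dod-3 differed by 0.09 ± 0.12, with a 95% interval of -0.18 to 0.36 (limma adjusted p = 0.680), and by 0.09 without GYY4137 replicate 3. The miss of the threshold does not show that the transcript was constant. The differences of dod-24 and dod-23 lie above this interval, although no test of dod-3 against them was run. The interval describes only how far these arrays scatter, so it does not bound the change between cultures of worms.

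**Figure D2:**
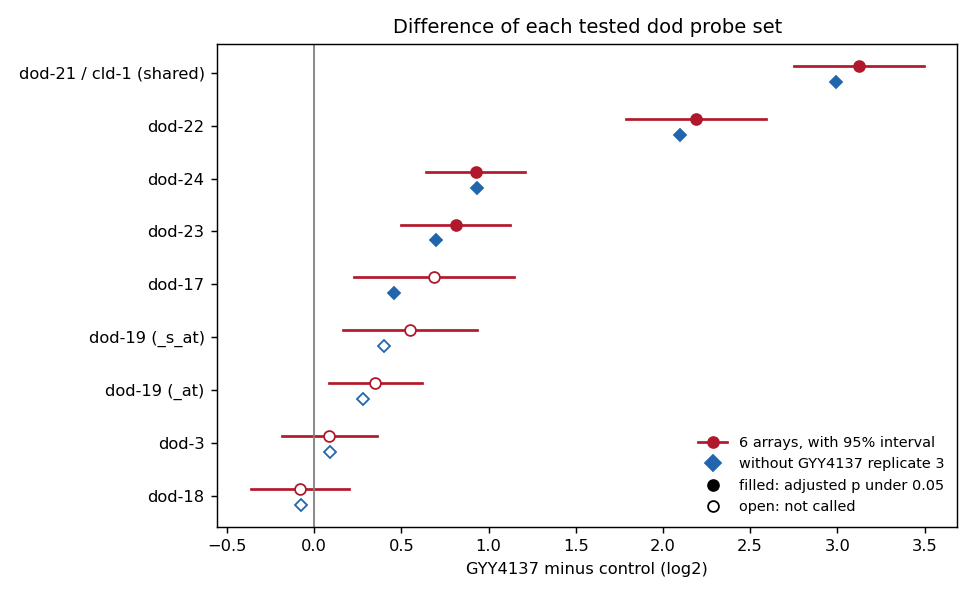
Difference between GYY4137 and control for each tested dod probe set in log2 units, from all 6 arrays with its 95% interval (circles) and without GYY4137 replicate 3 (diamonds), filled where limma's adjusted p was under 0.05. The differences run from 3.12 for the probe set shared by dod-21 and cld-1 to -0.08 for dod-18, and dod-17 is filled for the fit without replicate 3 alone.

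Of the 10 dod probe sets 9 were tested, 4 rose and 0 fell, against 1.09% raised and 0.41% lowered over the array, and this count includes the shared probe set that entered only through the GYY4137 arrays. There were 8 above the floor on all 6 arrays, a set that leaves out any probe set lying below the floor in 1 group. Among the 8, 3 rose (dod-22, dod-24 and dod-23), 0 fell and 5 did not pass. Over the 7089 probe sets of the array that were above the floor on all 6 arrays, 0.931% were raised. The median difference of the 8 was 0.62, against -0.03 for the 7089. The groups were separate, with GYY4137 higher, for 6 of the 8, against 13.8% of the 7089. Both dod-19 probe sets are among these 6, so the 8 probe sets are not 8 separate genes. With no filter 2 of the 10 dod probe sets rose, against 0.0931% over the array, and with array weights 7 of 9 rose, against 8.77%. Without GYY4137 replicate 3, 4 of the 8 were raised, dod-17 in addition, while the share raised among the 7089 was 2.86%, and the medians were 0.43 and -0.02. Replicate 3 had the highest of the 3 GYY4137 values for 5 of the 8, and for 2918 of the 7089. The members were chosen with earlier results of these data known, so no conclusion about the family is drawn from these counts.

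**Figure D3:**
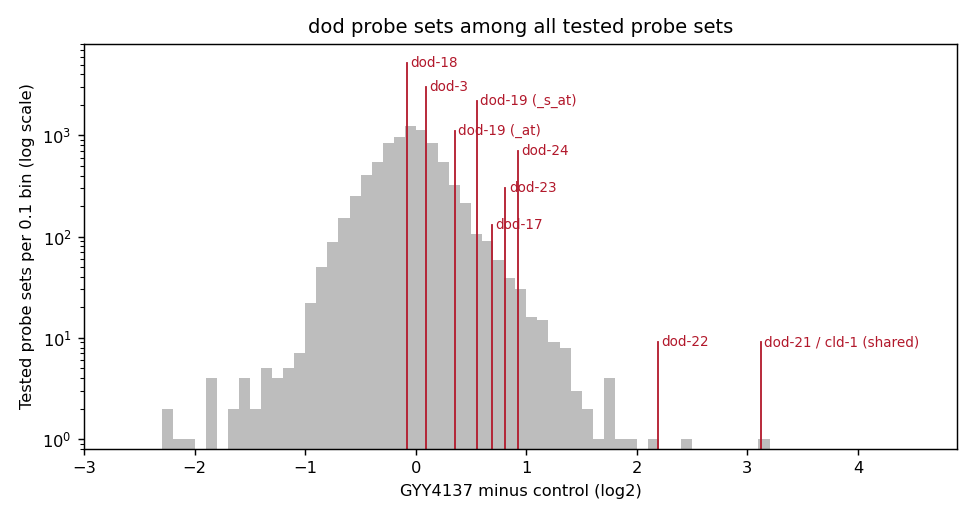
Histogram of the difference between GYY4137 and control in log2 units over the 8053 tested probe sets, with the number per bin on a log scale and the dod probe sets marked by lines. The shared probe set of dod-21 and cld-1 and dod-22 lie at 3.12 and 2.19 in the far right tail, dod-24, dod-23 and dod-17 on the right shoulder, and dod-3 and dod-18 at the centre.

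Leaving aside the shared probe set, whose control values give no firm level, the order of the differences was dod-22, dod-24, dod-23, dod-17, dod-19, dod-3 and dod-18. The 95% interval of dod-22 (1.79 to 2.59) did not touch those of the members after it. The intervals of dod-24, dod-23, dod-17 and dod-19 overlapped, except those of dod-24 (0.64 to 1.21) and of the dod-19 probe set ending in _at (0.09 to 0.62), so most of this order is not settled by these arrays.

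**Figure D4:**
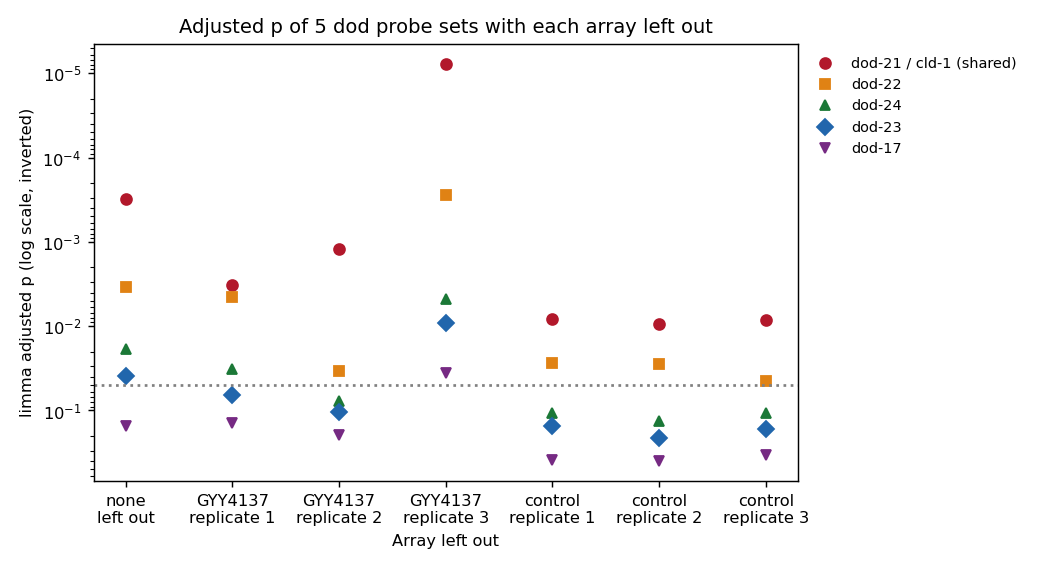
Limma adjusted p (log scale, inverted) of 5 dod probe sets from all arrays and with each array left out, with the threshold of 0.05 as a dotted line. The shared probe set of dod-21 and cld-1 and dod-22 stay past the threshold in every fit, dod-24 in those without GYY4137 replicate 1 or 3, dod-23 only in the fit without GYY4137 replicate 3, apart from the fit with all arrays, and dod-17 passes only there.

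Dod-21, dod-24, dod-22 and dod-17 lie close together on chromosome IV, in a run of 14 protein-coding genes from cld-1 to dod-17 in the RefSeq gene order of assembly WBcel235. Besides cld-1 there are 9 other genes in this run. For 6 of them, C32H11.11, dct-19, F55G11.1, F55G11.10, F55G11.6 and F55G11.7, every array was below 3 on the log2 scale. Their differences lay between 0.01 and 0.04, at a level where these arrays give no firm reading of the transcripts. C32H11.11 shares its probe set with srlf-6, a gene outside the run. All of these except C32H11.11 lie in the stretch between dod-24 and F55G11.8.

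The other 3 genes of the run were F55G11.8, F55G11.2 and mbug-1, which flank dod-22 and dod-17. F55G11.8, next to dod-22, had log2 values of 4.99, 5.08 and 5.996 in the GYY4137 replicates, against 4.46, 4.32 and 3.80 in the controls. It differed by 1.16 ± 0.29 without passing (limma adjusted p = 0.120), and passed at 0.84 without GYY4137 replicate 3 (limma adjusted p = 0.0304). Mbug-1, between dod-22 and dod-17, was read far above the floor, with 9.85, 9.84 and 9.64 in the GYY4137 replicates, against 8.88, 9.06 and 9.28 in the controls. It differed by 0.71 ± 0.14 (limma adjusted p = 0.0609), and by 0.77 without GYY4137 replicate 3, where it passed (limma adjusted p = 0.0126). F55G11.2, on the other side of dod-22, was mostly under the floor and was not tested, with 3.69, 3.58 and 4.39 in the GYY4137 replicates, against 3.07, 3.00 and 3.10 in the controls. In these 3 genes every GYY4137 array was above every control, and they are what remains of the 9 after the 6 unread ones. The same held for 13.4% of the tested probe sets of the array, a set that does not hold F55G11.2. The run and F55G11.2 were chosen after values were seen, so no conclusion about the neighbourhood is drawn from this count.

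**Figure D5:**
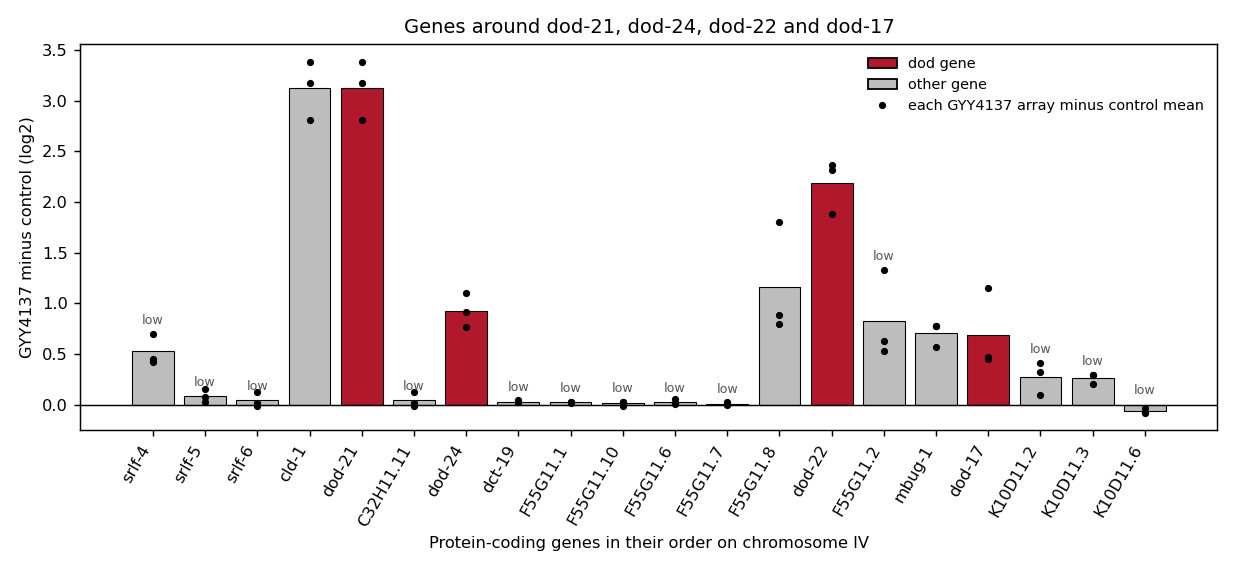
Difference between GYY4137 and control in log2 units for the genes around the chromosome IV dod genes, in gene order and not to scale, with dod genes in red, each GYY4137 array minus the control mean as points, and "low" over genes under the filter. Cld-1 and dod-21 show the same shared probe set, as do srlf-6 and C32H11.11. Dod-22 at 2.19 stands beside F55G11.8 at 1.16 and F55G11.2, under the filter, at 0.83. The genes from dct-19 to F55G11.7 lie near 0, with every array below 3 on the log2 scale.

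Over all 9 dod genes, the 3 protein-coding genes on each side gave 41 neighbours, of which 35 had a probe set of their own and 9 were tested. None was called, against 1.09% raised over the array, and their median difference was 0.05. Limma gave an unadjusted p under 0.05 for 3 of the 9, against 17.7% over the array. Mbug-1 and F55G11.8 were raised without GYY4137 replicate 3, 2 of the 9, against 3.04%. Irg-8, an infection-response gene between dod-19 and dod-20, differed by 0.64 ± 0.18 (limma adjusted p = 0.144). Rskn-2, a kinase gene near dod-18, differed by -0.21 ± 0.11 (limma adjusted p = 0.347).

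Irg-4 and irg-5, infection-response genes outside these clusters that also encode CUB-like proteins, gave different values. Irg-5 rose, with a mean of 4.89 ± 0.32 in GYY4137 worms, against 3.58 ± 0.06 in controls (SD, n = 3 each, limma adjusted p = 0.0179). Its control level was below the floor, so it passed the filter through the GYY4137 arrays, and leaving out any control array or GYY4137 replicate 2 ended its call, at differences of 1.28 to 1.40. Irg-4 averaged 5.61 ± 0.23 in GYY4137 worms and 5.60 ± 0.12 in controls, a difference of 0.01 ± 0.15 (limma adjusted p = 0.969).

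The genes that act on DAF-16 mostly did not pass. Of 21 genes of the pathway 14 were tested, 1 rose, 0 fell and 13 did not pass, against 1.09% raised and 0.41% lowered over the array. Their median difference was -0.08, against -0.04 for all tested probe sets. Of the 14, 5 were above control, against 42.9% over the array. Limma gave an unadjusted p under 0.05 for 4, in both directions, against 17.7%. The gene that rose was ins-7, an insulin-like ligand that signals through DAF-2 and is itself low when DAF-16 is active. Its mean was 5.49 ± 0.27 in GYY4137 worms, against 4.26 ± 0.07 in controls (SD, n = 3 each, limma adjusted p = 0.0143). Its call also ended without any 1 control array or GYY4137 replicate 2, at differences of 1.22 to 1.28. Pqm-1, a zinc finger factor whose nuclear presence opposes that of DAF-16, differed by 0.61 ± 0.12 (limma adjusted p = 0.0663), and passed at 0.63 without GYY4137 replicate 3 (limma adjusted p = 0.0244).

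Daf-16 itself averaged 6.43 ± 0.11 in GYY4137 worms and 6.53 ± 0.13 in controls (SD, n = 3 each). The probe set for daf-2 was below the floor, at 2.70 in GYY4137 worms and 2.69 in controls, so the receptor's transcript was not read.

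Genes that active DAF-16 raises were compared as a list of 21, with 18 on the array and 11 tested. None passed in limma (unadjusted p under 0.05 for 5, against 17.7% over the array), 8 of the 11 were above control, against 42.9% of all tested probe sets, and the median difference was 0.29. Without GYY4137 replicate 3 the median was 0.30 and 2 were raised, against 3.04% over the array, namely icl-1 of the glyoxylate cycle (0.68) and the ferritin gene ftn-1 (0.60). Dod-6, a dod gene of the class of dod-3, averaged 7.73 ± 0.07 in GYY4137 worms and 7.22 ± 0.32 in controls, a difference of 0.51 ± 0.17 that did not pass (limma adjusted p = 0.206). The lysozyme gene lys-7 differed by 0.29 ± 0.10 (limma adjusted p = 0.223). Sod-3, a superoxide dismutase gene often used as a reporter of DAF-16, was below the floor, at 2.52 in GYY4137 worms and 2.57 in controls.

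Besides the dod genes, 7 further genes that active DAF-16 keeps low were listed, and 5 were tested. The only one to rise was again ins-7, against 1.09% raised over the array, and the median difference was 0.06, against -0.04 for all tested probe sets. The yolk protein genes vit-2 and vit-5 differed by 0.10 ± 0.12 and -0.08 ± 0.10, the peptide transporter gene pept-1 by 0.06 ± 0.13 and the nuclease gene nuc-1 by 0.01 ± 0.13, and none of these passed.

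The 5 genes outside the family whose values were most like those of dod-22 over the 6 arrays were ttr-23, F53A9.6, C25E10.8, ins-7 and grl-23. Their Pearson correlations with dod-22 ran from 0.988 to 0.994, among 525 probe sets of a single gene with an SD of at least 0.5. The 6 points fall into the 2 groups, which carry most of such a correlation. Dod-22 was used here because it had the largest difference in earlier results of these data. Other genes that rose were therefore favoured, and shared regulation was not tested. Ttr-23, of the transthyretin-related family, had values of 5.08, 5.34 and 5.17 in the GYY4137 replicates, against 3.76, 3.93 and 3.82 in the controls. Within the family, dod-24 and the shared probe set followed dod-22 most closely, with correlations of 0.981 and 0.979, and dod-18 least, at -0.32.

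Markers of whole tissues were read beside these values. Over the array 17.7% of the tested probe sets had an unadjusted p under 0.05, and 42.9% were above control. None of 11 tested intestine markers passed in limma (unadjusted p under 0.05 for 2), and 9 were above control, with a median difference of 0.09. Their mean log2 level was 7.98 to 8.13 on the GYY4137 arrays and 7.87 to 7.97 on the control arrays. None of 12 oocyte markers passed either (unadjusted p under 0.05 for 6), but all 12 were below control, with a median of -0.34, and their mean level was 8.27 to 8.58 on the GYY4137 arrays and 8.79 to 8.87 on the control arrays. Of 9 tested sperm markers 0 passed (unadjusted p under 0.05 for 7) and 8 were above control, with a median of 0.54. Their mean level was 7.02 to 7.49 on the GYY4137 arrays, against 6.69 to 6.75 on the control arrays. The probe sets of msp-142, msp-64, msp-33, ssq-3, gsp-3 and gsp-4 end in _x_at, of a kind that can bind related transcripts. These sperm markers may therefore not be separate readings. Without GYY4137 replicate 3 the medians were 0.06, -0.21 and 0.37, with 1 oocyte marker lowered, against 1.69% over the array, and 2 sperm markers raised, against 3.04%. The part of these shifts in the dod results was not tested. Oocyte markers, which mature animals express, were thus read on every array of worms labelled as L4 larvae.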

How the data were processed

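The values deposited by the authors are log2 and were made with GCRMA, per the submitters' processing notes. The scale was read from the values, which run from 1.88 to 13.3. No source used here gives the GCRMA version. The 77 Affymetrix control probe sets were left out. Of 22625 probe sets, 20766 had 1 symbol, 887 several and 972 none, and symbols were updated by gene number through the RefSeq gene table (20701 matched), which also gave gene order.

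A probe set was tested when above 4 on at least 3 arrays (8053). The difference between GYY4137 and control came from limma 3.58.1 under R 4.3.3 (lmFit, eBayes, two-sided), with Benjamini-Hochberg adjustment over all tested probe sets. Each ± beside a difference is its standard error. Genes of lists were read on their probe set with the highest mean. Named genes were every dod gene, called list genes (up to 6), up to 4 further with the smallest p in the lists of CUB-like, neighbouring and DAF-16 genes, fixed genes (daf-16, pqm-1, daf-2, ins-7, irg-4, irg-5, sod-3) and the 5 most like dod-22. Of the DAF-16 pathway genes that were not called, 1 gene that this rule names is not reported here, and aap-1 and akt-1, named by the same rule, were left out with it so that the remaining steps are not shown in part. F55G11.2, the other genes of the chromosome IV run and the run itself were chosen after values were seen. No table with protein descriptions was used, so the CUB-like list held only irg-4 and irg-5. Members and lists were chosen with earlier results of these data known.

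On simulated data for this comparison, 10 simulations each altered 200 of 8053 probe sets. In these, 71.2% of 2-fold and 96.3% of 4-fold changes were recovered, while 4.59% of calls were false. The simulated noise of a probe set had the same spread on all 6 arrays, so no array stood apart as GYY4137 replicate 3 did. These rates may therefore not hold for the real arrays. Alternatives were other filters (none, a floor of 6, a mean above 4), array weights, quantile normalization, a variance prior with an intensity trend, leaving out each array, median centring, a block for the replicate number, and counting every probe set of a list's genes. The number of arrays limits the precision.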

Additional observations from a re-analysis of the deposited data

How the results depend on the processing

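The dod probe sets called numbered 4 of 9 tested, and 4 again with a mean filter, quantile normalization, median centring or an intensity trend. They numbered 3 with a floor of 6, under which the shared probe set, dod-17, dod-18, dod-20 and 1 dod-19 probe set were not tested. They were 2 with no filter, 7 with array weights, and between 2 and 5 with 1 array left out. With no filter dod-24 and dod-23 were not called (limma adjusted p = 0.0569 and 0.109). With array weights dod-17 and both dod-19 probe sets were also called, at differences of 0.48, 0.33 and 0.28. No dod probe set changed direction except dod-18, which was at 0.014 without control replicate 2 and ran from -0.14 to 0.014 with 1 array left out. The cause was not tested. Over the array 121 probe sets were called, against 33 with no filter, 80 with a floor of 6, 1389 with array weights (706 raised, 683 lowered) and 12 to 381 with 1 array left out. The main settings called 88 raised and 33 lowered.

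Same-numbered arrays did not deviate together, with correlations of their deviations of 0.11, -0.02 and 0.05 for numbers 1, 2 and 3, so the numbers were not read as pairs. With the replicate number as a block, 73 probe sets were called over the array and 2 dod probe sets, the shared one and dod-22.

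With no filter the counts of called CUB-like, DAF-16 pathway and other DAF-16-lowered genes were 0, 0 and 0, against 1, 1 and 1. With array weights 8.77% of the 8053 probe sets of the array were raised and 683 were lowered. Beside this, 3 of 9 neighbours, 2 of 14 DAF-16 pathway genes, 5 of 11 DAF-16-raised genes and 7 of 9 sperm markers were raised. Of 12 oocyte markers 4 were lowered, and of 11 intestine markers 1 was raised and 1 lowered. With 1 array left out the called genes ran from 0 to 1 for the CUB-like and other DAF-16-lowered lists, from 0 to 2 for the neighbours, the DAF-16 pathway, the DAF-16-raised and the sperm lists, and from 0 to 1 for the oocyte list. Values near the floor of 4 leave little room for a fall to be read in dod-17, dod-18 and the dod-19 probe set ending in _at. For dod-20 and the shared probe set, values under the floor leave the size of the difference unsettled.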
